A study of Rattus norvegicus with 7 samples.

Results

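Metallothioneins are small, cysteine-rich proteins that bind zinc and other metal ions, and the probes examined here are those of their genes, of transcripts with similar behaviour or position and of their regulator Mtf1 in NR8383 cells exposed to ZnO nanoparticles (NPs). Every non-control probe whose gene name in the array files is Mt1a, Mt2A, Mt3, Mt4, FQ220235, ENSRNOT00000058957 or Mtf1 was taken, also where it lay below background. These are 7 of the 36174 names, with 9 of the 45598 probes and 29 of the 58717 spots on each array. The names were chosen with their response to ZnO in these same arrays known, so their differences between exposed and control cells are given as a description, without a test.

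NR8383 is a line of alveolar macrophages, established from the lung lavage of a normal rat. The exposed group (ZnO, 3 biological replicates) received 2 µg/mL of ZnO NPs for 4 h per the sample labels, and the control group (4 biological replicates) was kept for the same 4 h without NPs, both in medium free of serum. The dose in the study's methods, set as a fraction of a toxic concentration, is not the dose of the labels, and the seeding density differs between them as well. The samples all come from this 1 line in culture, so the replicates are not separate animals. Each replicate was hybridised to 1 one-color Agilent rat array, and the signal of each spot, a background-corrected intensity, is given on the log2 scale relative to the 75th percentile of its array, so that 0 is that percentile, with the spots of a probe averaged.

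All 7 arrays lay on 1 slide, the ZnO arrays in 1 of its columns and the control arrays in the other, so effects of the column and of ZnO cannot be told apart. The 75th percentile was an intensity of 980 to 1603 on ZnO arrays and 958 to 1489 on control arrays, and 52.9% to 54.3% of spots on ZnO arrays and 51.7% to 56.0% on control arrays were well above background, the scanner software's call that a spot is brighter than its surroundings. The software's quality report marked ZnO replicates 2 and 3 and control replicates 3 and 4 for evaluation. Of 9 macrophage markers with a probe, 8 were well above background on all arrays, and Marco, a scavenger receptor of alveolar macrophages, on none. None of the 3 lymphocyte markers with a probe was. Of the markers of neurons and glia, Gfap was well above background on 3 arrays and Snap25 and Syt1 on 0. Well above background on all arrays were 1 of 6 epithelial markers (Krt14), 2 of 4 fibroblast markers (Col1a2 and Dcn) and 2 of 3 endothelial markers (Pecam1 and Cdh5), with log2 fold changes of ZnO over control between -0.14 and 0.07. The other 8 of these markers, among them Epcam, Cdh1, Sftpc, Col1a1 and Kdr, were well above background on 0 to 2 arrays. The precision of each value is limited by the few arrays, 3 with ZnO and 4 without.

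In the cell, metallothioneins hold zinc in clusters of cysteine residues and keep its free level low. When free zinc rises, the factor Mtf1 binds it through zinc fingers, attaches to short metal response elements in the promoters of the metallothionein genes and of the zinc exporter gene Slc30a1, and switches them on. Mt1a and Mt2A (the first is listed as Mt1 in the current rat annotation) are made in most tissues and are inducible by metals, while Mt3 is best known from the brain and Mt4 from stratified squamous epithelium. Rat metallothionein genes lie side by side on chromosome 19.

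The probes of the 4 genes lie in that order on the minus strand of chromosome 19 in the rn4 build, that of Mt1a at chr19:11261631-11261690, that of Mt2A at chr19:11267834-11267893, that of Mt3 at chr19:11284627-11284686 and that of Mt4 at chr19:11300132-11300191. The FQ220235 probe, at chr19:11262012-11262071 on the same strand, lies 381 bases from the Mt1a probe and between it and the Mt2A probe, which is 6203 bases away from that of Mt1a. The ENSRNOT00000058957 probe is placed by the files on the minus strand of another chromosome, at chrX:55288646-55288706. FQ220235 and ENSRNOT00000058957 have no gene symbol in the files or in the current annotation. Whether the positions fall in exons, introns or untranslated regions was not looked up, because no annotation of rn4 was used here.

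The 60-base sequences of these 2 unnamed transcripts are shown because they resemble each other although the files place them on different chromosomes, with the stretch they share in capitals.
ENSRNOT00000058957: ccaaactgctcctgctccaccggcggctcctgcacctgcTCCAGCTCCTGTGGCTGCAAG
FQ220235: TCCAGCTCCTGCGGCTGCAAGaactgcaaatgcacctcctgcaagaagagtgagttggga
The last 21 bases of the ENSRNOT00000058957 probe, its positions 40 to 60, line up with the first 21 of the FQ220235 probe. Of these 21 bases, 20 are identical and 1 differs, C12T, with the base of FQ220235 first and positions counted from the 5′ end of its probe. Both probes are rich in the triplets TGC and TGT, which encode cysteine. In the reading frame that holds most of them there are 6 such triplets in ENSRNOT00000058957, a number reached by 0.246% of all probes on the array, and 5 in FQ220235, reached by 0.691%. The FQ220235 probe also holds GTGAGT, a form in which introns often begin, at position 50, as do 1.18% of all probes. A protein of these transcripts was not examined.

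The Mt1a probe is of another kind, with 1 such triplet in its best frame and the polyadenylation signal AATAAA, found in 9.04% of all probes, which is in capitals in its last 30 bases.
Mt1a: gcatgtgaatAATAAAagcctgtttattct
The longest stretch that the Mt1a probe shares with any other is 4 bases for FQ220235, 5 for ENSRNOT00000058957, 7 for Mt2A and 9 for Mt3, and no probe of the array shares 15 bases in a row with the probe of any metallothionein or of the unnamed transcripts. How far each probe also binds transcripts of the other metallothionein genes was not tested.

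The promoters of the 4 metallothionein genes, the 250 bases before the annotated start (RefSeq, GRCr8 build, minus strand), are shown because they differ in how many cores of the metal response element they hold. The cores, TGCACNC or TGCGCNC on either strand, are in capitals.
Mt1a, chr19:10832976-10833225: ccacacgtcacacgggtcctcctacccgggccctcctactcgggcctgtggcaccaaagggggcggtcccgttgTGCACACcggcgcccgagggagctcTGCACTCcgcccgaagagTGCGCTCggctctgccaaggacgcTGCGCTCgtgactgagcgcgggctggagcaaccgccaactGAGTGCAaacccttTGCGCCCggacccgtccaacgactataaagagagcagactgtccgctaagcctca
Mt2A, chr19:10838709-10838958: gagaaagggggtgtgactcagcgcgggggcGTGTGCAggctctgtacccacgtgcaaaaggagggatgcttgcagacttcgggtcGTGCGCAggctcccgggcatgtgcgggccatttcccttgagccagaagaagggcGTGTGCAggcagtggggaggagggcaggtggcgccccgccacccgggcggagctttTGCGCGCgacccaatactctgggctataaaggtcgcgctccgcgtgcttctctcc
Mt3, chr19:10856081-10856330: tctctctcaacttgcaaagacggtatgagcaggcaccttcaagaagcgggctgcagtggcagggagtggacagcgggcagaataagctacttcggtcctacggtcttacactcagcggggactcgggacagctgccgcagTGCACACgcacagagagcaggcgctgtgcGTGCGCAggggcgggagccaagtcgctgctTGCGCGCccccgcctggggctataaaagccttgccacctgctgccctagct
Mt4, chr19:10871832-10872081: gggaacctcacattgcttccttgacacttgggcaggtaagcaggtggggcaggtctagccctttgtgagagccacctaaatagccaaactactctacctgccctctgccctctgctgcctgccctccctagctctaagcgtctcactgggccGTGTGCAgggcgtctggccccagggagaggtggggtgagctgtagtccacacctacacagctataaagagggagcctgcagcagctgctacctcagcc
There were 6 cores before Mt1a, 4 before Mt2A, 3 before Mt3 and 1 before Mt4. Of the 33469 rat promoters of the same length, 20.6% held at least 1 core, 1.17% at least 3, 0.266% at least 4 and 0.0269% at least 6. Before Mt1a and Mt2A the core nearest the start lay at the same distance, 55 to 49 bases upstream, and before Mt3 at 51 to 45 bases. A TATAAA box, found in 8.06% of promoters, stood once before each of the 4 genes, between 37 and 26 bases upstream. The GGGCGG box, bound by Sp1, was present 2 times before Mt1a, 1 time before Mt2A and 1 time before Mt3, against 30.5% of all promoters with at least 1 on either strand. CACGTG, the E-box bound by Usf1 and Usf2, stood once before Mt2A and not before the other 3, and 5.59% of promoters hold it. The promoters of Mtf1 and of Slc30a1 held 2 cores each, a number reached by 4.90% of promoters. A match of these letters is not a measured binding site.

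**Figure D1:**
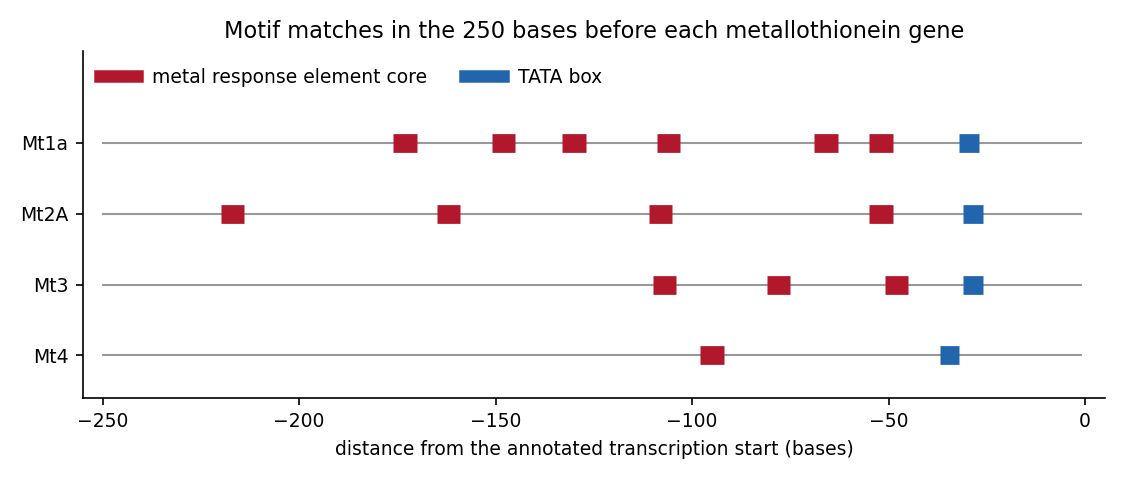
Positions of the metal response element cores (red) and the TATA box (blue) in the 250 bases before the 4 metallothionein genes, with distance from the annotated start on the horizontal axis in bases. The number of cores was 6 for Mt1a, 4 for Mt2A, 3 for Mt3 and 1 for Mt4, and each gene had 1 TATA box.

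Mt2A and Mt1a, and both unnamed transcripts, were higher in ZnO than in control cells in every replicate, by folds of 56.9, 10.6, 9.40 and 7.97. In RNA from whole cultures, more cells that make a transcript and more of it per cell cannot be told apart. Of the 9 probes, 7 met the condition for the fit across the array, being well above background on every ZnO array or every control array. All ZnO arrays lay above all control arrays for 4 of these 7 and the groups overlapped for the other 3, where 3.8% of all 20050 probes tested had that order. As the names were chosen on this same difference, nothing is read from that count.

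Mt2A, the isoform with the largest fold, was at 2.36, 2.25 and 2.32 in ZnO replicates 1 to 3, against -3.17, -3.69, -3.59 and -3.63 in control replicates 1 to 4. The ZnO values lay within about 0.1 log2 units of each other, and among the controls only replicate 1 stood somewhat higher. The means were 2.31 ± 0.06 (SD, n = 3) in ZnO cells and -3.52 ± 0.24 (SD, n = 4) in control cells, with a log2 fold change of 5.83 (standard error 0.13, 95% interval 5.53 to 6.13). Before scaling, the intensity of the 1 Mt2A spot was 5040, 6201 and 8006 in ZnO cells, against 146, 116, 97.8 and 77.5 in control cells. The control signal was thus only a few times that of the dimmest spots called well above background, which were at 16.7 to 20.3 on the control arrays. The fold moved with the background correction. It was 36.5 with normexp, a model of signal plus noise, and 40.2 with the deposited table of uncorrected intensities, both below the 95% interval of 46.1 to 70.2 around 56.9.

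Mt1a, a bright probe in both groups, was at 6.09, 5.84 and 5.88 in ZnO cells, against 2.60, 2.40, 2.74 and 2.39 in control cells. All ZnO values lay 3.10 log2 units or more above the highest control. The means were 5.94 ± 0.14 (SD, n = 3) in ZnO cells and 2.53 ± 0.17 (SD, n = 4) in control cells, and the log2 fold change was 3.40 (standard error 0.11, 95% interval 3.14 to 3.66), a fold of 10.6. The array carries this probe in 10 spots. Their intensities averaged 66798, 74619 and 94567 in ZnO cells, against 7986, 7880, 7882 and 5040 in control cells, with no saturated spot on any array. Within an array the 10 spots agreed closely, with an SD of 0.04 to 0.10 log2 units. The spread between the spots was smaller than that between replicates (0.14 in ZnO cells and 0.17 in control cells).

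**Figure D2:**
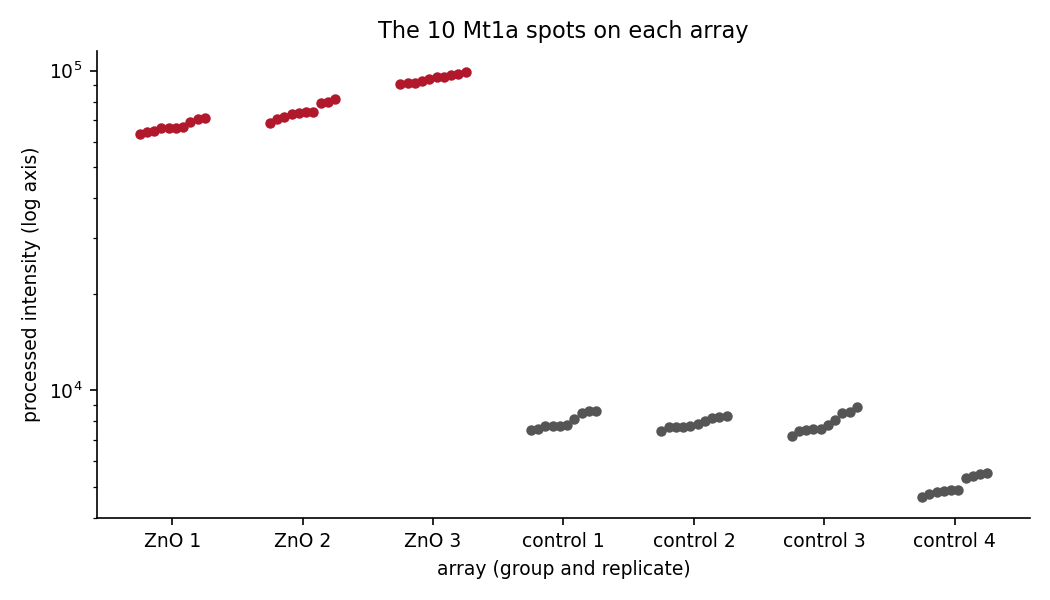
Processed intensity (vertical axis, log scale) of the 10 Mt1a spots on each array (horizontal axis), ZnO arrays in red and control arrays in grey, before scaling between arrays. All ZnO spots lie between 63274 and 99095, and all control spots between 4652 and 8857, with control replicate 4, the array with the lowest 75th percentile (958), the dimmest.

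The FQ220235 probe lies 381 bases from that of Mt1a, and whether it reads an RNA separate from that of Mt1a was not tested. FQ220235 was at 4.48, 4.15 and 4.23 in ZnO cells, against 1.11, 0.87, 1.27 and 0.98 in control cells. The groups were far apart, and ZnO replicate 1 and control replicate 3 were the highest of their groups, as they were for Mt1a. The means were 4.29 ± 0.17 (SD, n = 3) in ZnO cells and 1.06 ± 0.17 (SD, n = 4) in control cells, with a log2 fold change of 3.23 (standard error 0.12, 95% interval 2.95 to 3.52). ENSRNOT00000058957 was at 4.81, 4.49 and 4.48 in ZnO cells, against 1.70, 1.45, 1.78 and 1.48 in control cells. Again ZnO replicate 1 and control replicate 3 stood highest. Its means were 4.60 ± 0.19 (SD, n = 3) in ZnO cells and 1.60 ± 0.16 (SD, n = 4) in control cells, with a log2 fold change of 2.99 (standard error 0.12, 95% interval 2.71 to 3.28). Each of these transcripts has 2 spots on the array, and of the 14 spots of each over the 7 arrays 0 were marked as outliers.

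The small differences between replicates ran in parallel for the probes of Mt1a, FQ220235 and ENSRNOT00000058957. Whether these probes read separate RNAs was not tested. As deviations from the group mean, ZnO replicate 1 was at 0.15 for Mt1a, 0.19 for FQ220235 and 0.21 for ENSRNOT00000058957, and control replicate 3 was at 0.21, 0.21 and 0.17. Control replicate 2 was below its group mean in all 3, at -0.13, -0.18 and -0.15. Mt2A differed in the controls, where replicate 1 was at 0.35 and replicate 3 at -0.07. Over the 7 arrays, which share 1 slide and the division into ZnO and control, Pearson's r with Mt1a was 1.00 for FQ220235 and for ENSRNOT00000058957 and 0.997 for Mt2A.

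Mt3 and Mt4, the metallothioneins of brain and of squamous epithelium, were not well above background in either group, on 0 of 3 ZnO arrays and 0 of 4 control arrays. Mt3 has 10 spots on the array. Their average intensity was 6.16 to 7.25 on ZnO arrays and 5.22 to 7.88 on control arrays, with outlier-marked spots left out. Of the 70 Mt3 spots over all arrays, 1 was called well above background, at 127 on ZnO replicate 1, and it was 1 of the 3 that the software marked as outliers. Mt4 was at 5.95 to 20.6 on ZnO arrays and 5.94 to 11 on control arrays, on its 1 spot. No fold is given for these 2 genes. Tesmin, named Mtl5 in the files, is the only other probe described there as metallothionein-like, and it too was well above background on 0 arrays.

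**Figure D3:**
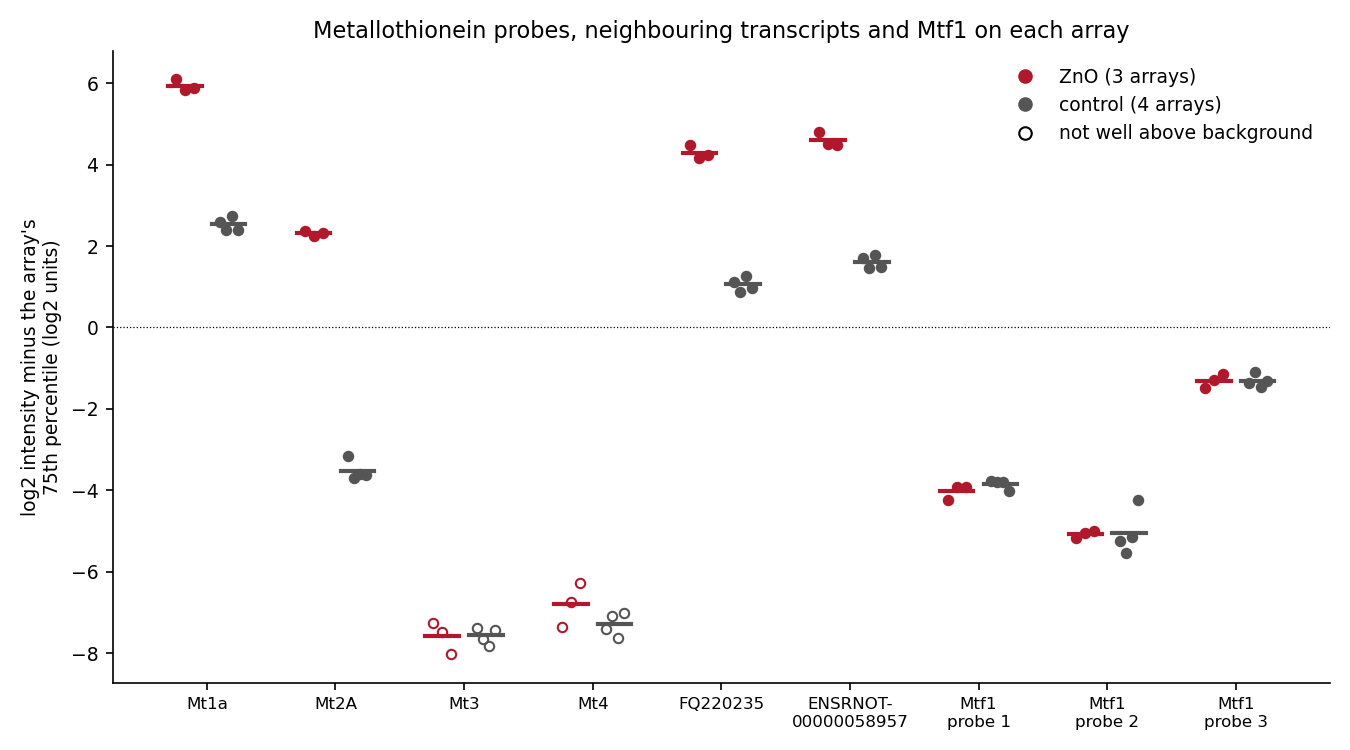
Log2 intensity minus the array's 75th percentile (vertical axis, log2 units) of the 9 probes (horizontal axis), with 1 point for each array, ZnO in red to the left of control in grey, bars at the group means and open symbols for the probes not well above background (Mt3 and Mt4). Mtf1 probes 1 to 3 follow in the order of their positions on chromosome 5. ZnO and control points are separate for Mt1a, Mt2A, FQ220235 and ENSRNOT00000058957, and they overlap for all 3 Mtf1 probes.

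The transcript of Mtf1 itself had overlapping values with and without ZnO on all 3 of its probes, which lie on chromosome 5 of rn4 (plus strand). The probe at chr5:144172266-144175534, a span of 3269 bases that its 60 bases cover in part, was at -4.23, -3.92 and -3.93 in ZnO cells, against -3.78, -3.79, -3.79 and -4.02 in control cells. Control replicate 4 lay below 2 of the ZnO arrays, so the groups overlapped. The log2 fold change was -0.18 (standard error 0.11, 95% interval -0.43 to 0.07). This probe shares 15 or more bases in a row with the probe of Srgn, the proteoglycan serglycin of blood cells, and the part of Srgn in its signal was not tested.

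The Mtf1 probe at chr5:144180236-144180295 was dim, at -5.18, -5.05 and -5.00 in ZnO cells, against -5.25, -5.54, -5.15 and -4.25 in control cells. Control replicate 4 stood apart above all other arrays here, and the log2 fold change was -0.03 (standard error 0.28, 95% interval -0.68 to 0.62), or 0.24 without that array. The brightest of the 3, at chr5:144181945-144182004, was at -1.498, -1.28 and -1.13 in ZnO cells, against -1.35, -1.09, -1.47 and -1.31 in control cells. The groups lay on top of each other, with a log2 fold change of 0.00 (standard error 0.12, 95% interval -0.28 to 0.28). Changes of the Mtf1 transcript within these intervals could not be seen with these arrays, and the protein and its place in the cell were not measured.

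No tested probe around the metallothionein genes passed the threshold. Within 500000 bases of the Mt1a probe the array has 27 further probes, of 20 names, and 13 of them could be tested. By limma, 0 of these 13 passed an adjusted p under 0.05 in either direction and 1 passed an unadjusted p under 0.05 (5.92% of all probes did), where 0.0499% of all 20050 probes tested were called higher and 0% lower. The 13 log2 fold changes ran from -0.31 to 0.12 with a median of -0.01, and that of all probes tested was also -0.01. The transcript ENSRNOT00000026340, 198 kb away, was at -0.31 (standard error 0.10, adjusted p = 0.727 from limma), with all ZnO arrays below all control arrays, an order found in 3.59% of probes. Arl2bp, an effector of a small GTPase, was at -0.14 (adjusted p = 0.922 from limma), and Bbs2, a subunit of the BBSome that carries cargo to cilia, was at 0.12 on both of its probes (adjusted p = 0.971 and 0.932 from limma). The nearest tested neighbours lay at -135 kb and 117 kb from the Mt1a probe, so nothing was measured between them other than the metallothionein probes and FQ220235.

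**Figure D4:**
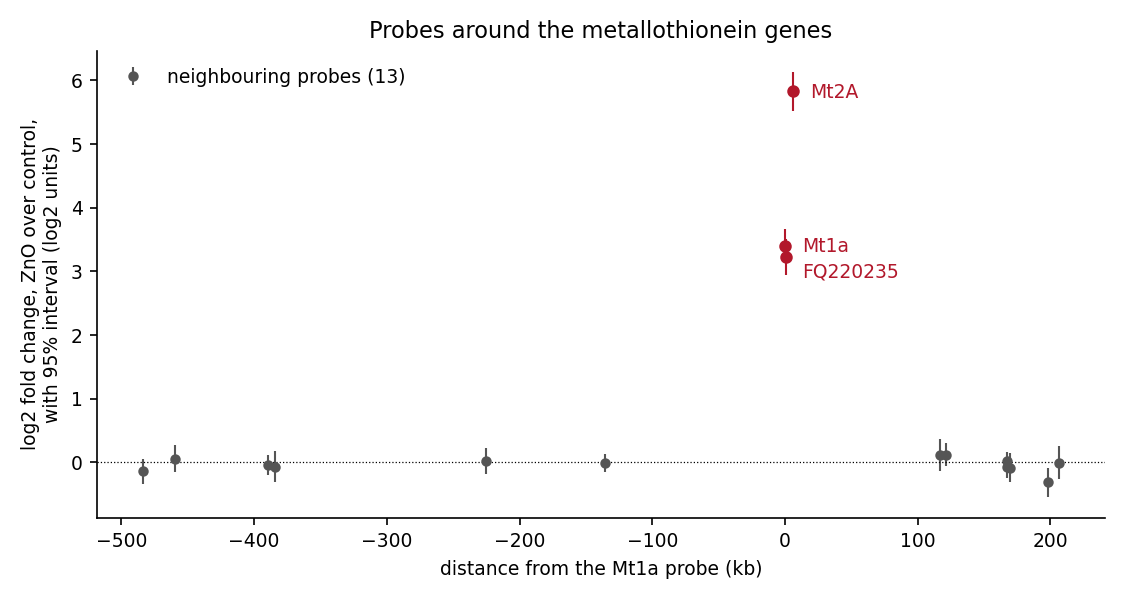
Log2 fold change of ZnO over control (vertical axis, with the 95% interval as a bar) against distance from the Mt1a probe in kb (horizontal axis), for the 13 tested neighbours in grey and for Mt1a, Mt2A and FQ220235 in red. The neighbours lie between -0.31 and 0.12, and the 3 red points at 3.40, 5.83 and 3.23.

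Among other genes known to respond to metals or to Mtf1 in mammals, Slc30a1 was the 1 called higher. Of 10 such genes 7 could be tested, and at an adjusted p under 0.05 limma called 1 higher and 0 lower (0.0499% and 0% of all probes), with a median log2 fold change of 0.17 for the 7, against -0.01 for all probes. Unadjusted, 3 had a p under 0.05 and lay higher, and 1 lay lower, against 3.06% higher and 2.86% lower of all probes. As the list was chosen with earlier results of these data known, nothing is read from its median or these counts. Slc30a1 encodes ZnT1, which moves zinc out of the cell, and its means were 0.06 ± 0.11 (SD, n = 3) in ZnO cells and -1.31 ± 0.13 (SD, n = 4) in control cells. The fold was 2.59 (log2 fold change 1.37, standard error 0.09, adjusted p = 0.00279 from limma), with all ZnO arrays above all controls. Slc39a10, a zinc importer that Mtf1 represses in the mouse, was at -4.34 ± 0.29 (SD, n = 3) in ZnO cells and -3.08 ± 0.26 (SD, n = 4) in control cells. Its log2 fold change of -1.26 (standard error 0.18) did not pass (adjusted p = 0.194 from limma), although all ZnO arrays lay below all controls. Hamp, the iron hormone hepcidin, was dim, at 0.29 (standard error 0.16, adjusted p = 0.903 from limma). Slc30a2, Slc40a1 and Pgf were well above background on 0 arrays. The call of Slc30a1 was lost with the spike-in probes as the scale (adjusted p = 1.00), with dim probes kept in (0.0636) and with a block for the replicate number (0.223), with limma in each case, while its log2 fold change was 1.44, 1.37 and 1.33 there. Over all alternatives the log2 fold change of Slc30a1 ran from 1.25 to 1.44.

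Factors other than Mtf1 that bind or act at metallothionein promoters were measured in full. All 8 (Usf1, Usf2, Sp1, Nfe2l2, Nr3c1, Stat3, Hif1a and Ep300) were tested and 0 were called, also at an unadjusted p under 0.05, with a median log2 fold change of -0.08. With 0.0499% of all probes called and 5.92% at an unadjusted p under 0.05, a count of 0 among so few genes does not set them apart from other probes, and the same holds for the glucocorticoid-responsive genes. Sp1, which binds GC boxes, was at -0.18 (standard error 0.08, adjusted p = 0.867 from limma). Usf1, an E-box factor, was at 0.18 (standard error 0.08, adjusted p = 0.844 from limma). Nfe2l2, the regulator of the antioxidant response, was at -0.17 (standard error 0.09, adjusted p = 0.894 from limma). For Usf1 all ZnO arrays lay above all controls, an order found in 3.8% of probes. For Sp1 and Usf2 all ZnO arrays lay below all controls, as in 3.59% of probes. The groups overlapped for the other listed factors. As this list too was chosen with earlier results known, nothing is read from these orders. Glucocorticoids also induce metallothioneins, and of 7 genes that respond to them 5 could be tested and 0 were called, likewise without adjustment. The log2 fold changes of the 5 were close together, from -0.03 to 0.03, with Tsc22d3 (GILZ) at -0.03, the chaperone partner Fkbp5 at 0.03 and the repressor Klf9 at 0.02.

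**Figure D5:**
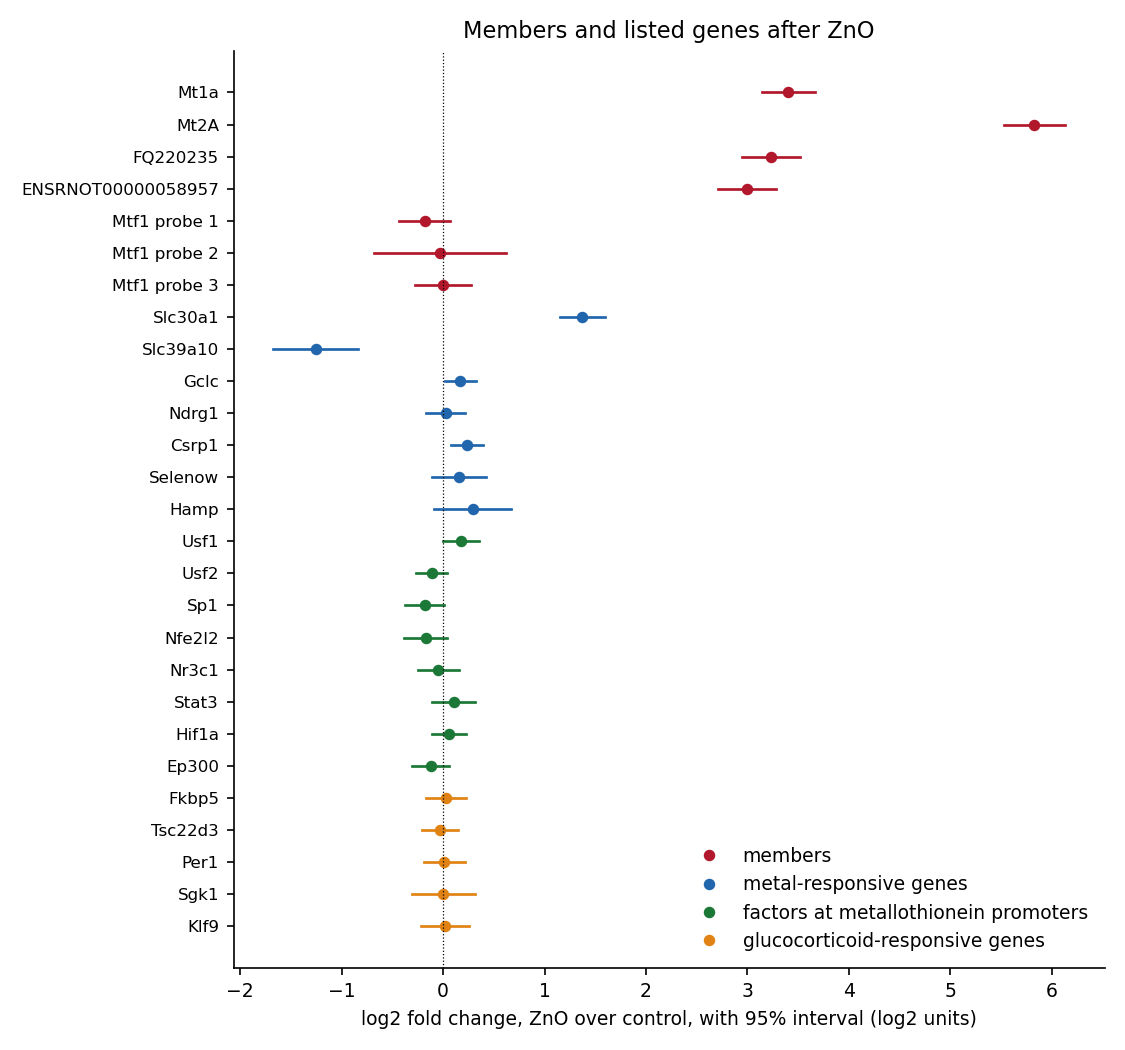
Log2 fold change of ZnO over control (horizontal axis, log2 units) with its 95% interval for the tested probes of the metallothionein genes, unnamed transcripts and Mtf1 (red), metal-responsive genes (blue), factors at metallothionein promoters (green) and glucocorticoid-responsive genes (orange). Slc30a1 at 1.37 and Slc39a10 at -1.26 lie apart from the other listed genes, which are between -0.18 and 0.29.

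Only 6 further probes of the 20050 passed an adjusted p under 0.05, all of them higher in ZnO cells. Probes lower in ZnO cells were called under some alternatives, 4 with a trended, robust variance and 1 each with quantile normalization, median centring and the percentile over detected probes. Slc30a1 is one of the 6 that were higher. AI071904, a transcript with no symbol, was well above background on 3 of 3 ZnO arrays and on 0 of 4 control arrays. It therefore entered the fit only through the ZnO arrays. It was at -4.56 in ZnO cells and -8.27 in control cells, and was at least 2.78-fold higher in ZnO cells. This bound sets each control array at its dimmest spot called well above background. The adjusted p of 0.0262 from limma uses control values below that level, so it is not a test of the bound. Cers1, a ceramide synthase, was at a log2 fold change of 1.37, Tmco4, a transmembrane protein, at 0.95, the zinc-finger gene Zfp472 at 0.70 and the uncharacterised LOC102552371 at 0.68 (adjusted p = 0.00128, 0.00547, 0.0389 and 0.0262 from limma). Cers1 was dim, at -3.62 in ZnO cells and -4.98 in control cells. Zfp472 was at -2.82 and -3.52.

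The named genes whose pattern over the 7 arrays was most like that of Mt1a were Slc30a1 (Pearson's r = 0.997), LOC102552371 (0.995), Pdcd2l (0.990), Rabep2 (0.990) and Tmco4 (0.988). Among these, Pdcd2l and Rabep2 were not called, at log2 fold changes of 0.17 and 0.40 (adjusted p = 0.787 and 0.305 from limma). For both, all ZnO arrays lay above all controls. The likeness is a description over arrays that differ mainly between ZnO and control cells.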

How the data were processed

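Spots were quantified by the authors in Agilent Feature Extraction 11.0.1.1, and the deposited file of each array holds per spot a background-subtracted, detrended intensity without normalization between arrays. The study used percentile normalization, with test and percentile not named. The deposited table that covers all arrays, called normalized, holds the intensity that the scanner gave as median signal, at each of the 62976 spots, and served as an alternative.

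Intensities of non-control spots were put on the log2 scale relative to the 75th percentile of their array, and a probe took the mean of its spots, those marked as outliers excepted. The 20050 probes that were well above background (the call of most of their unmarked spots) on every ZnO array or every control array were compared with limma 3.58.1 in R 4.3.3 (lmFit, eBayes), with Benjamini-Hochberg adjustment, a call being an adjusted p under 0.05. The limma steps were tested on simulated data. Gene names were matched to RefSeq by accession for 21109 probes, by symbol for 6684 and by synonym for 424, while 17381 have the files' own name. Positions of probes are on rn4, per the file headers. A listed gene takes its tested probe with the highest mean signal.

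The members and lists were chosen with earlier results of these data known. The text names all members, listed genes that passed and up to 3 of each list with the largest changes, the 3 neighbours with the largest changes, other probes that passed, and the 5 genes most like Mt1a. Marker genes named in the text were chosen after their values were seen. Alternatives were other scalings (quantile, median, spike-in, percentile over detected probes), normexp with offset 50, the deposited table, outlier-marked spots kept, the median of spots, other filters, a trended robust variance, the replicate number as a block, the thresholds of the study (fold over 1.5 with an adjusted p under 0.001), and each array left out. Python 3.11.15, pandas 2.3.3, numpy 2.4.6, version 1.17.8 of data.table and matplotlib 3.10.9 were used.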

Additional observations from a re-analysis of the deposited data

Results flagged for a closer look

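Among control cells, the Mtf1 probe at chr5:144172266-144175534 had 1 replicate apart from the others: replicate 4 was at -4.02, against -3.78 to -3.79 in the other 3, a gap of 0.974 of the group's whole range, past Dixon's limit for 4 samples. Chance alone marks about 1 group in 20. The same array was the highest of its group on the Mtf1 probe at chr5:144180236-144180295.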

How the results depend on the processing

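Mt1a, FQ220235 and ENSRNOT00000058957 kept their direction under all 19 alternatives, at log2 fold changes of 3.33 to 3.47, 3.14 to 3.30 and 2.89 to 3.06. Not all of the 19 could move a fold change. The other filters and the trended variance leave it as it is, and so does keeping marked spots where a probe has none. The block for the replicate number gives the same fold change as leaving out control replicate 4. Mt2A ran from 5.19 to 5.95, with 5.19 after normexp and 5.33 with the deposited table. The 3 Mtf1 probes ran from -0.24 to -0.08, -0.20 to 0.24 and -0.08 to 0.10. The number of probes past the threshold was 10 (10 higher, 0 lower) and ran from 4 to 14. It was 14 (4 of them lower) with a trended, robust variance, 11 (1 lower) with quantile normalization, 10 (1 lower) with the percentile over detected probes, 9 (1 lower) with median centring, 9 with only probes detected on all arrays, 7 with normexp, 7 with the deposited table, 5 with spike-in scaling, 5 without the filter on dim probes, 4 with the study's thresholds, 7 to 8 with 1 array left out, and 10 with outlier-marked spots kept or the median of spots. The metal-responsive genes past it were 1, but 0 with spike-in scaling, 0 without the filter and 2 with a trended, robust variance, where Slc39a10 passed (adjusted p = 0.0476 from limma). The adjusted p of Slc30a1 ran from 6.07e-05 to 1.00. The cause of these shifts was not tested. With the replicate number as a block, 4 probes and 0 metal-responsive genes passed, and control replicate 4 then adds nothing to the comparison. Deviations of same-numbered arrays correlated at -0.09, 0.21 and -0.23, so the numbers were not taken as pairs. The other listed counts and that of the neighbours stayed at 0 throughout. Arrays were few, and the p-values rest on the spread between these replicates, with limma also drawing on the spread of all probes tested. They compare cultures of 1 line and cannot separate ZnO from the column of the slide. The Mt2A probe was near background in control cells, and its fold moved with the correction.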
